A study of Mus musculus with 12 samples.

Results

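The 54 genes described here had a lower RNA signal after arsenite in both GADD34 knockout (KO) and wildtype (WT) cells. They were chosen on group means of log2 signal. In each genotype the mean of the arsenite-treated arrays lay at least 0.7 below the mean of the untreated arrays, and both untreated means were at least 6.5, a level above which 10262 of the 20750 measured genes lay. Each gene was read by 1 probe set, a set of short probes that reports 1 transcript. It was the brightest of those that name that gene alone. Of 60 genes that met these values, 6 were left out by name: Dnm3os, Hoxa9, Zfp322a, Zfp329, Zfp606 and Zfp770. The rule sets aside Dnm3os and every symbol starting with Hox, Zfp or Slc. The 54 are 0.26% of all genes and 0.526% of those at the same untreated level. Of the 76 genes with both falls at any level and not left out by name, 22 lay under the level minimum.

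The study measured RNA on 12 arrays from mouse embryonic fibroblasts immortalised with the SV40 large T antigen, in 3 replicate experiments that each held all 4 conditions. The groups, with 3 arrays each, were homozygous KO cells given arsenite, untreated KO cells, WT cells given arsenite, and untreated WT cells. Arsenite was 0.1 mM sodium arsenite for 2 h, and all groups carry the same strain label, which names the Ppp1r15A tm1.1.Ajf allele on B6.129P2 and C57Bl/6, come from mid-gestation embryos and grew with beta-mercaptoethanol in the medium. As far as the labels say, each genotype is 1 cell population, so that loss of GADD34 and other differences between the populations cannot be told apart. The SV40 antigen binds p53 and the retinoblastoma protein in all groups, which limits these cells as a model of the cell cycle and of p53 responses.

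Arsenite binds thiol groups, causes oxidative stress and leads to phosphorylation of the initiation factor eIF2-alpha, which slows the start of translation. GADD34, encoded by Ppp1r15a, is the inducible subunit that brings protein phosphatase 1 to eIF2-alpha and lets translation resume. The level of a transcript after a short stress follows both its synthesis and its decay, and these arrays read only the level that results.

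The targeted gene followed the labels. Ppp1r15a read 6.27, 6.71 and 5.88 in arsenite-treated KO cells and 6.42, 6.34 and 6.20 in untreated KO cells, against 12.24, 12.25 and 11.60 in arsenite-treated WT cells and 8.45, 8.57 and 8.88 in untreated WT cells. Pearson's r between arrays of a group, across genes that are not independent replicates, was 0.985 to 0.996. Of the 12 fibroblast markers, none were called changed in KO cells (1 higher and 1 lower at an unadjusted p under 0.05) and 1, Thy1, was called lower in WT cells (-0.43 ± 0.10, SE, limma adjusted p = 0.0498). With the replicate number as a block in the fit, 1 fibroblast marker was called higher and 1 lower in KO cells, and 1 lower in WT cells. Of the markers of other cell types, 1 of muscle was called higher in KO cells (2 with the block), and with the block 1 endothelial marker was higher and 1 macrophage marker lower in KO cells. None of them was called in WT cells by limma with or without the block, where at an unadjusted p under 0.05 there were 1 endothelial and 1 neural marker higher. The mean level of the fibroblast markers was 10.91 to 12.04 over the arrays, whereas the mean levels of the epithelial, endothelial, macrophage, neural and muscle lists were 4.90 to 6.34. As a check of RNA integrity, the 3' probe set of Actb exceeded its 5' probe set by medians of 0.28 in arsenite-treated KO cells, 0.38 in untreated KO cells, 0.27 in arsenite-treated WT cells and 0.35 in untreated WT cells. Its part in the lower signals was not tested.

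Mir100hg (listed on the arrays as 2610203C20Rik) is the long noncoding RNA that hosts miR-100, let-7a-2 and miR-125b-1, and of the 5 mature miRNAs that RefSeq gives for it, 1 from each hairpin is shown, because the probe set reads the host and not the miRNAs. The sequences are from RefSeq, build GRCm38.p6, 5' to 3', with the seed (bases 2 to 8) in capitals. No seed is shared among the 3 shown. For let-7a-2 only the form mmu-let-7a-2-3p was held, so its other arm is not compared.
mmu-miR-100-5p, chr9:41531437-41531458, plus strand: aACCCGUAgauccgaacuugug
mmu-let-7a-2-3p, chr9:41536777-41536797, plus strand: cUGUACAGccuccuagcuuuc
mmu-miR-125b-5p, chr9:41581940-41581961, plus strand: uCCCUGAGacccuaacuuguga

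For the 12 members with the largest mean fall, RefSeq windows from 250 bases before to 50 bases after the start were held for 5 protein-coding genes, and these are shown so that their composition can be compared. Capitals mark every match, on either strand, to the motifs searched, which were the E-box (CACGTG), the cyclic AMP response element (TGACGTC), the AP-1 site (TGANTCA), the CCAAT box by its name, the TATA box (TATAAA), the GC box (GGGCGG), the ETS site (CCGGAAG), the YY1 site (AAGATGG), the antioxidant response element (TGACNNNGC), and by name alone the NRF1 site and the heat shock element.
Rpl12, chr2:32961462-32961761, plus strand: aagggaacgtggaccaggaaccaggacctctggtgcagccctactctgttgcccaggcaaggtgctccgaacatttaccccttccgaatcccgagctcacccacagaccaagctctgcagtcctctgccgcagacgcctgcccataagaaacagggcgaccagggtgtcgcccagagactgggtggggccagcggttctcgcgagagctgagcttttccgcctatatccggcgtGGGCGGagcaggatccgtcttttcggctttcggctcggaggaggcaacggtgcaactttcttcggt
Clec2d, chr6:129180365-129180664, plus strand: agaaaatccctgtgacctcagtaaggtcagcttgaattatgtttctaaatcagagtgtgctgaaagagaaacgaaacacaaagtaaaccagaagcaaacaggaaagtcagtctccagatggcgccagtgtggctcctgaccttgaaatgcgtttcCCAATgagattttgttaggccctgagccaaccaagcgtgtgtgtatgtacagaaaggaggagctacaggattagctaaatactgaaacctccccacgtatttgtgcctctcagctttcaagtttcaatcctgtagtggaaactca
Fam43a, chr16:30599473-30599772, plus strand: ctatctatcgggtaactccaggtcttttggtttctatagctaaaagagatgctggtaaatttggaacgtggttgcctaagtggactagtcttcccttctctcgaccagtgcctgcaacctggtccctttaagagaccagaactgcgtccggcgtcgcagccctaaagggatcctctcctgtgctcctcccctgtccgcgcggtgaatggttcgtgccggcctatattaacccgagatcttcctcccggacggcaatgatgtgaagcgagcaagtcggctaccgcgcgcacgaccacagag
Ccnj, chr19:40831029-40831328, plus strand: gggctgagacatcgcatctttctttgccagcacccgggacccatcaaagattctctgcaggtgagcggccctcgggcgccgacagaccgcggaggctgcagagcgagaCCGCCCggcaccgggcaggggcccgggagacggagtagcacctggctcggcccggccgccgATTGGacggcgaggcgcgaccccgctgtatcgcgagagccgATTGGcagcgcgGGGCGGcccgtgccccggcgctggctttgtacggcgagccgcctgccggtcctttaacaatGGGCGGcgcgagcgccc
Etaa1, chr11:17953826-17954125, minus strand: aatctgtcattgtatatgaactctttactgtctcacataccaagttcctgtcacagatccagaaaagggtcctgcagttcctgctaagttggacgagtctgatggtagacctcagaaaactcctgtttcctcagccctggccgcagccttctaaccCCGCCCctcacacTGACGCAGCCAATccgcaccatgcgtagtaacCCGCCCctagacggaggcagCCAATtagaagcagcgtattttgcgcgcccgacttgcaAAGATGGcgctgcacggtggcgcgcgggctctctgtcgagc

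Rpl12 holds a GC box, Clec2d a CCAAT box, and Fam43a no match. Ccnj holds both CCAAT and GC boxes. Etaa1 holds CCAAT boxes, GC boxes, a YY1 motif and an antioxidant response element that overlaps 1 of the CCAAT boxes.

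As a group the members had a median change of -1.05 on the log2 scale in KO cells (-2.51 to -0.71) and -0.95 in WT cells (-2.57 to -0.71), sizes that the choice of members fixes. The median over genes at the same untreated level was -0.07 in KO cells and -0.08 in WT cells. A fall of at least 1 was reached by 32 members in KO cells, 24 in WT cells and 19 in both. All 3 arsenite arrays lay below all 3 untreated arrays for 49 members in KO cells (9.68% of all genes), 53 in WT cells (10.6% of all genes) and 48 in both (4.38% of all genes), and since the rule used these contrasts nothing is read from these counts. The exceptions were Fam26e (now Calhm5), Ttc30b, Ppp1r3d, Irs1 and Chst15 in KO cells and Neat1 in WT cells. In bulk RNA, fewer cells of a type and less RNA per cell cannot be told apart.

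**Figure D1:**
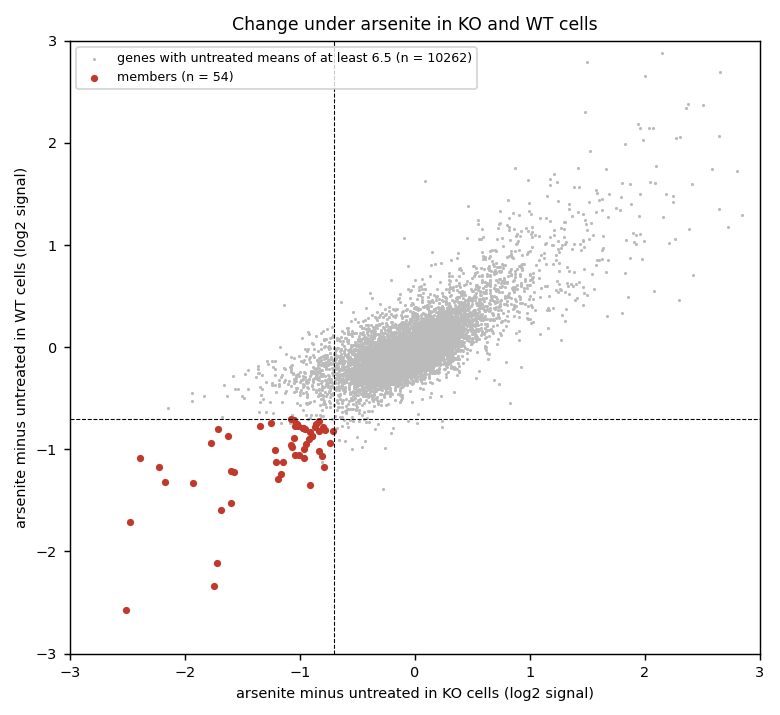
Change under arsenite (arsenite minus untreated, log2 signal) in KO cells on the x axis and in WT cells on the y axis, for 10262 genes with untreated means of at least 6.5 (grey points) and the 54 members (red points); dashed lines mark -0.7, and 31 genes lie outside the plotted range. The members fill the lower left corner by their choice, reaching -2.51 in KO cells and -2.57 in WT cells.

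Near the limit the choice was close. The members just inside it were Gdpgp1, with changes of -1.07 in KO cells and -0.71 in WT cells, Smug1, with -0.71 and -0.82 in the same order, and AI597479, with -1.05 and -0.71. Just outside lay Ptx3, with -0.93 in KO cells and -0.70 in WT cells, Purg, with -0.91 and -0.69, and Dancr, with -1.68 and -0.68. Ptx3 read 12.87, 11.19 and 13.28 in arsenite-treated KO cells, against 13.70, 12.78 and 13.65 in untreated KO cells. In WT cells Ptx3 read 10.80, 9.49 and 10.18 with arsenite, against 11.46, 10.45 and 10.67 without. Its groups overlapped in both genotypes, while those of the member Gdpgp1 lay apart. Gdpgp1, a GDP-D-glucose phosphorylase, read 5.76, 6.04 and 5.81 in arsenite-treated KO cells and 6.86, 7.09 and 6.88 in untreated KO cells. In WT cells it read 6.08, 6.18 and 6.17 with arsenite and 6.79, 6.99 and 6.78 without.

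The most negative mean change over both genotypes belonged to LOC101056057, a transcript that is named only by this identifier. It read 5.58, 5.73 and 6.80 in arsenite-treated KO cells, against 8.01, 8.75 and 8.88 in untreated KO cells. WT cells gave 4.84, 4.83 and 6.37 with arsenite, against 7.79, 7.89 and 8.06 without. The groups lay apart in both genotypes, and the array of experiment 3 was the highest of each arsenite group. Its changes were -2.51 ± 0.42 in KO cells and -2.57 ± 0.42 in WT cells (SE from the limma fit, n = 3 arrays per group). The arsenite arrays of experiments 1 and 2 lay under the 40th percentile of all values (5.86) in both genotypes, so that the sizes of these changes are uncertain. Another transcript without a RefSeq match, 2610319H10Rik, read 6.09, 6.87 and 7.45 in arsenite-treated KO cells and 8.03, 8.70 and 8.38 in untreated KO cells. It read 5.97, 6.69 and 7.15 in arsenite-treated WT cells and 7.63, 7.81 and 8.03 in untreated WT cells. These groups did not overlap either, with changes of -1.57 ± 0.34 in KO cells and -1.22 ± 0.34 in WT cells. In all, 7 members had no RefSeq match, with a median change of -1.04 in KO cells and -0.80 in WT cells. The other unmatched ones were B230337E12Rik, A130088B03Rik, 4933411D12Rik, 9030419F21Rik and 9230108I15Rik, which changed by -1.71, -1.01, -1.04, -0.96 and -0.79 in KO cells and by -0.80, -1.05, -0.77, -0.80 and -0.78 in WT cells.

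RNA and protein synthesis took in 5 members. Rpl12, a protein of the large ribosomal subunit, read 6.04, 5.95 and 7.02 in arsenite-treated KO cells, against 8.41, 9.37 and 8.64 in untreated KO cells. In WT cells Rpl12 read 6.78, 7.26 and 7.24 with arsenite, against 8.44, 9.11 and 8.87 without. The groups lay apart, with changes of -2.47 ± 0.31 in KO cells and -1.72 ± 0.31 in WT cells. The other 2 probe sets that list Rpl12, together with 2 similar loci, read 13.91 to 14.47 on all arrays and changed by -0.06 and -0.08 in KO cells and -0.05 and -0.09 in WT cells. Which transcript form the chosen probe set reads was not tested. Tyw3, which acts in the synthesis of the tRNA base wybutosine, changed by -0.91 ± 0.34 in KO cells and -1.35 ± 0.34 in WT cells. Mtfmt, which formylates the initiator methionyl-tRNA of mitochondria, changed by -0.89 ± 0.28 in KO cells and -0.87 ± 0.28 in WT cells. Zc3hav1l, a relative of the antiviral zinc finger protein ZAP by name, changed by -1.04 ± 0.20 in KO cells and -1.06 ± 0.20 in WT cells. Ppan, a ribosome assembly factor, changed by -0.74 ± 0.24 in KO cells and -0.94 ± 0.24 in WT cells. Of the other 29 cytosolic ribosomal protein genes with a probe set of their own, none were called in either genotype at an adjusted p under 0.05 (limma, with or without the replicate block), and at an unadjusted p under 0.05 the count was 1 lower in KO cells and 2 lower in WT cells. Their median change was -0.07 in KO cells and -0.10 in WT cells. Counts over pathway lists leave out the members, which were chosen on the same contrasts. Over all genes, 3.8% were called lower and 3.74% higher with arsenite in KO cells, and 0.477% lower and 1.65% higher in WT cells. With the replicate block these shares were 8.07% and 6.63% in KO cells and 1.79% and 3.09% in WT cells. Rps25 and Rps6 had the next largest falls of that list, with -0.24 ± 0.26 and -0.18 ± 0.07 in KO cells and -0.24 ± 0.26 and -0.17 ± 0.07 in WT cells.

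Cell cycle and DNA maintenance genes numbered 4. Ccnj, which encodes cyclin J, read 4.58, 5.82 and 5.69 in arsenite-treated KO cells and 6.72, 7.47 and 6.96 in untreated KO cells. The WT values were 4.88, 5.52 and 5.58 with arsenite and 6.85, 7.09 and 6.81 without. The groups lay apart, with changes of -1.69 ± 0.31 in KO cells and -1.59 ± 0.31 in WT cells. The arsenite arrays of Ccnj all lay under the 40th percentile of all values (5.86). The sizes of these changes, and their likeness between genotypes, are thus uncertain. Etaa1, an activator of the replication stress kinase ATR, read 7.01, 6.97 and 7.38 in arsenite-treated KO cells and 8.67, 8.84 and 8.65 in untreated KO cells. In WT cells Etaa1 read 7.35, 7.07 and 7.55 with arsenite and 8.91, 8.83 and 8.80 without. Its arrays were among the tightest of the members, with changes of -1.60 ± 0.14 in KO cells and -1.53 ± 0.14 in WT cells, which is 33.0% of the untreated signal in KO cells and 34.7% in WT cells. Skp2, the F-box protein that targets the inhibitor p27 for degradation, changed by -0.83 ± 0.19 in both genotypes. Its 5 other probe sets were also lower in both genotypes, with changes of -0.85 to -0.39 in KO cells and -1.01 to -0.36 in WT cells. Smug1, a uracil-DNA glycosylase, changed by -0.71 ± 0.14 in KO cells and -0.82 ± 0.14 in WT cells. Of the 67 cullin adaptors and ubiquitin ligases listed beside Skp2, 8 were called higher and 7 lower in KO cells, and 5 higher and none lower in WT cells, where 7 were lower at an unadjusted p under 0.05. With the replicate block 10 were higher and 10 lower in KO cells, and 10 higher and 1 lower in WT cells. Kbtbd8, a cullin adaptor, had changes of -0.81 ± 0.35 in KO cells and -0.96 ± 0.35 in WT cells and was not called. Socs4 was called lower in KO cells (-1.35 ± 0.16, limma adjusted p = 0.000529), and in WT cells it changed by -0.39 ± 0.16.

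Receptors, ligands and signalling adaptors numbered 6. Clec2d, a C-type lectin-like ligand of NK cell receptors of the Nkrp1 family, read 7.40, 6.96 and 8.08 in arsenite-treated KO cells, against 10.46, 9.07 and 10.07 in untreated KO cells. In WT cells Clec2d read 6.73, 6.92 and 7.10 with arsenite, against 8.25, 7.91 and 7.85 without. The groups lay apart in both genotypes, and untreated KO arrays stood above all other arrays. The changes were -2.39 ± 0.33 in KO cells and -1.09 ± 0.33 in WT cells, or 19.1% of the untreated signal in KO cells and 47.1% in WT cells. Of the 9 other listed C-type lectins of the Clec families, 7 lay under the 40th percentile of all values in every group. None of the 9 was called with arsenite by limma, with or without the replicate block, and at an unadjusted p under 0.05 there were 3 higher in KO cells and none in WT cells.

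Fzd8, a Wnt receptor, changed by -1.19 ± 0.32 in KO cells and -1.30 ± 0.32 in WT cells. Of 46 other genes of the Wnt, Notch and Hedgehog pathways, 5 were called lower and 1 higher in KO cells, and none lower and 1 higher in WT cells, where 2 were lower at an unadjusted p under 0.05. With the replicate block 11 were lower and 3 higher in KO cells, and 2 lower and 1 higher in WT cells. Related receptors with the next largest falls, Fzd6 and Fzd2, changed by -0.91 ± 0.36 and -0.59 ± 0.21 in KO cells and by -0.29 ± 0.36 and -0.58 ± 0.21 in WT cells and were not called. Irs1, the adaptor that couples insulin and IGF1 receptors to PI3-kinase, read 10.66, 9.95 and 10.90 in arsenite-treated KO cells and 11.80, 10.84 and 11.92 in untreated KO cells. Its WT values were 10.09, 10.05 and 10.37 with arsenite and 11.00, 10.82 and 11.00 without. The KO groups overlapped, since the untreated array of experiment 2 lay below the arsenite array of experiment 3, and within every experiment the arsenite array was the lower. Its changes were -1.02 ± 0.28 in KO cells and -0.77 ± 0.28 in WT cells. Of 33 genes of growth arrest and quiescence listed beside Irs1, 4 were called higher and 3 lower in KO cells, and 2 higher and none lower in WT cells, with none lower there at an unadjusted p under 0.05. With the replicate block 7 were higher and 7 lower in KO cells, and 3 higher and 1 lower in WT cells. Yod1, a deubiquitinase, was called lower in KO cells (-1.45 ± 0.27, limma adjusted p = 0.00746) and changed by -0.22 ± 0.27 in WT cells. Arrdc3, an arrestin-domain protein, changed by -1.07 ± 0.38 in KO cells and -0.67 ± 0.38 in WT cells and was not called. Efna4, an ephrin-A ligand of Eph receptors, changed by -1.25 ± 0.18 in KO cells and -0.74 ± 0.18 in WT cells. Lpar6, a receptor for lysophosphatidic acid, changed by -1.07 ± 0.34 in KO cells and -0.97 ± 0.34 in WT cells, while in experiment 3 its KO arrays differed by -0.01. Ppp1r3d, which brings protein phosphatase 1 to glycogen, changed by -0.80 ± 0.31 in KO cells and -1.06 ± 0.31 in WT cells.

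Enzymes that make, modify or break down glycans numbered 7, with changes of -1.05 to -0.78 in KO cells and -1.02 to -0.75 in WT cells. They act at several steps of the building, trimming and breakdown of glycans. Alg11, a mannosyltransferase that extends the lipid-linked precursor of N-glycans, changed by -0.86 ± 0.13 in KO cells and -0.75 ± 0.13 in WT cells. Mogs, the glucosidase that trims the outermost glucose of N-glycans, read 9.18, 8.63 and 8.97 in arsenite-treated KO cells and 10.04, 10.14 and 9.44 in untreated KO cells. In WT cells Mogs read 8.51, 8.15 and 8.59 with arsenite and 9.45, 9.45 and 9.21 without. Its arsenite arrays lay below its untreated arrays throughout, with changes of -0.94 ± 0.20 in KO cells and -0.95 ± 0.20 in WT cells. Nanp, a phosphatase of sialic acid synthesis, changed by -0.83 ± 0.19 in KO cells and -1.02 ± 0.19 in WT cells. For Ndst2, which N-deacetylates and N-sulphates heparan sulphate, the changes were -1.05 ± 0.19 in KO cells and -0.89 ± 0.19 in WT cells. Chst15, which sulphates chondroitin sulphate, changed by -0.89 ± 0.42 in KO cells and -0.87 ± 0.42 in WT cells. Fut11, a fucosyltransferase, and Hyal2, a hyaluronidase of the cell surface, changed by -0.97 ± 0.18 and -0.78 ± 0.17 in KO cells and by -0.80 ± 0.18 and -0.81 ± 0.17 in WT cells.

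Proteins of cilia and tubulin numbered 3. Ttc30a1 and Ttc30b encode forms of the intraflagellar transport protein IFT70 and lie on chromosome 2 with 1 gene between them. Ttc30a1 changed by -0.97 ± 0.23 in KO cells and -0.80 ± 0.23 in WT cells, and Ttc30b by -1.07 ± 0.48 and -0.96 ± 0.48 in the same order. Ttll4, which adds glutamate to tubulin, changed by -1.02 ± 0.25 in KO cells and -0.76 ± 0.25 in WT cells, but another of its probe sets with an untreated level of at least 6.5 changed by 0.08 in KO cells and 0.07 in WT cells.

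Long noncoding RNAs made up 7 of the 47 members with a RefSeq match (14.9%), against 1.45% of matched genes at the same untreated level. Their median change was -1.63 in KO cells and -1.12 in WT cells. The KO change minus the WT change was called for none of the 7. Under arsenite, Mir100hg and 5730408K05Rik were called lower in KO than in WT cells, as given below. Mir100hg, the host of the miRNAs printed above, read 7.84, 9.10 and 8.94 in arsenite-treated KO cells, against 10.11, 10.96 and 10.58 in untreated KO cells. In WT cells Mir100hg read 9.26, 9.94 and 9.63 with arsenite, against 10.64, 11.08 and 11.12 without. The groups lay apart, and its changes were -1.92 ± 0.32 in KO cells and -1.33 ± 0.32 in WT cells. Rab26os (listed as 2610019E17Rik), by name the opposite strand of Rab26, read 4.81, 4.97 and 5.09 in arsenite-treated KO cells, below the 40th percentile of all values, and 6.35, 8.20 and 6.82 in untreated KO cells. The WT values were 5.34, 5.60 and 5.36 with arsenite, also below that percentile, and 6.38, 7.04 and 6.82 without. Its KO change of -2.17 ± 0.36 leaned on the untreated array of experiment 2 and was -1.63 without that array, while its WT change was -1.32 ± 0.36. Oip5os1 (listed as 1700020I14Rik and known as Cyrano), which directs the decay of miR-7, read 8.80, 7.69 and 8.90 in arsenite-treated KO cells and 10.40, 9.77 and 10.11 in untreated KO cells. In WT cells Oip5os1 read 9.22, 8.56 and 8.69 with arsenite and 9.86, 9.67 and 9.55 without. The groups lay apart in both genotypes, and its 2 other probe sets were lower too, with changes of -0.49 and -1.25 in KO cells and -0.26 and -0.57 in WT cells. The other noncoding members 5730408K05Rik, A930004D18Rik and 2810410L24Rik changed by -1.77, -1.21 and -1.21 in KO cells and by -0.93, -1.13 and -1.01 in WT cells.

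Neat1, the scaffold of nuclear paraspeckles, varied more between experiments. It read 8.95, 10.18 and 9.65 in arsenite-treated KO cells and 10.28, 11.30 and 10.64 in untreated KO cells. In WT cells Neat1 read 7.84, 9.16 and 9.93 with arsenite and 9.62, 10.07 and 10.59 without. The WT groups overlapped, although each experiment's arsenite array was the lower, and the changes were -1.15 ± 0.49 in KO cells and -1.12 ± 0.49 in WT cells. A second Neat1 probe set of a level of at least 6.5 changed by 0.15 in KO cells and 0.07 in WT cells. Of 21 other listed long noncoding RNAs, 3 were called higher and none lower in KO cells, and 2 higher and none lower in WT cells. At an unadjusted p under 0.05, 1 was lower in KO cells and none in WT cells. With the replicate block 5 were higher and 2 lower in KO cells, and 3 higher and none lower in WT cells. From that list, Snhg3 and Mir17hg changed by -0.86 ± 0.47 and -0.98 ± 0.41 in KO cells and by -0.44 ± 0.47 and 0.09 ± 0.41 in WT cells and were not called.

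Membrane proteins of other kinds numbered 7. Sft2d3, a small protein of vesicle membranes, read 4.84, 5.38 and 5.49 in arsenite-treated KO cells and 7.09, 6.47 and 7.30 in untreated KO cells. In WT cells Sft2d3 read 4.87, 4.44 and 4.89 with arsenite and 7.01, 6.05 and 7.47 without. All arsenite arrays lay below all untreated arrays, with changes of -1.72 ± 0.33 in KO cells and -2.11 ± 0.33 in WT cells. The arsenite arrays of Sft2d3 all lay under the 40th percentile of all values (5.86), so the sizes of these changes are uncertain. Tm2d3 read 7.29, 7.0 and 8.33 in arsenite-treated KO cells and 9.14, 9.07 and 9.21 in untreated KO cells. In WT cells it read 7.55, 7.14 and 8.04 with arsenite and 8.75, 8.69 and 8.93 without. Its untreated arrays were close together while the arsenite arrays spread, and the changes were -1.60 ± 0.30 in KO cells and -1.22 ± 0.30 in WT cells. Tmem101, Tmem121 and Tmppe changed by -0.96, -0.92 and -0.83 in KO cells and by -1.08, -0.90 and -0.72 in WT cells. Snn, which encodes stannin, changed by -1.17 ± 0.27 in KO cells and -1.24 ± 0.27 in WT cells. Another Snn probe set, with untreated levels of 6.19 in KO and 6.29 in WT cells, changed by 0.12 and 0.01. Of the genes of metabolism other than Gdpgp1, Hilpda, a protein of lipid droplets that inhibits triglyceride breakdown, changed by -0.87 ± 0.18 in KO cells and -0.79 ± 0.18 in WT cells. Protein-coding members of other kinds included 0610030E20Rik, Ankrd49 and Zbtb34, with changes of -0.97, -0.79 and -0.92 in KO cells and of -1.0, -1.17 and -0.83 in WT cells.

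**Figure D2:**
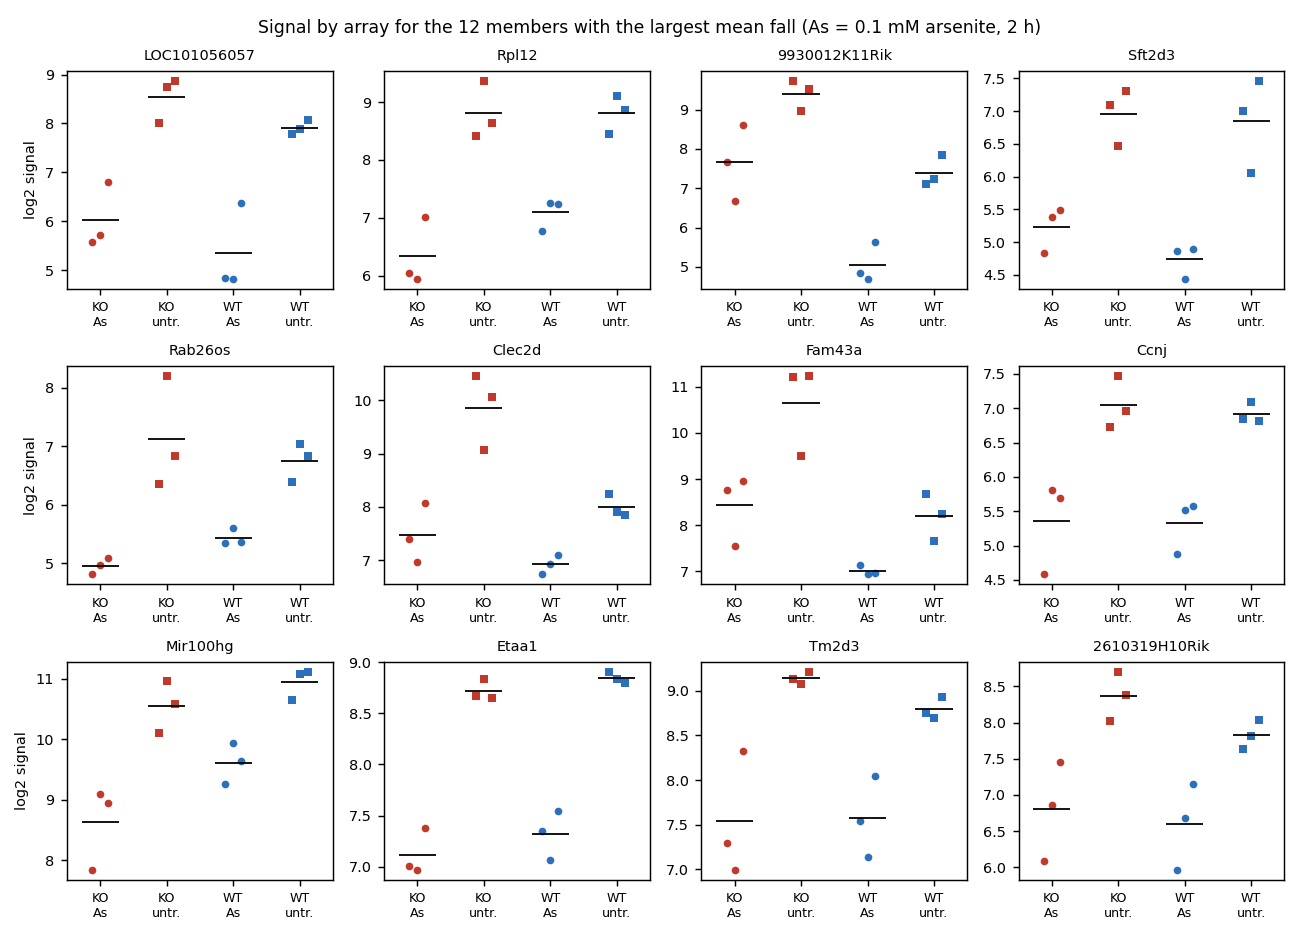
Log2 signal of each array for the 12 members with the largest mean fall, in arsenite-treated KO, untreated KO, arsenite-treated WT and untreated WT cells (points are arrays, bars are group means, and each panel has its own y axis). In each panel the arsenite arrays of a genotype lie below its untreated arrays, and Clec2d, Fam43a and 9930012K11Rik stand higher in untreated KO than in untreated WT cells.

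Whether the falls recur in arrays not used to choose genes was examined by applying the rule to 2 experiments and reading the genes in the one left out. Without experiment 1 the rule chose 59 genes, and in experiment 1 all 59 were lower in both genotypes, where 45.4% of genes at the same level were. Of these, 40 (67.8%) were lower by at least 0.7 in both, against 0.684% of genes at that level. Without experiment 2 it chose 41 genes, all lower in both genotypes in experiment 2 (52.1% of genes at that level), and 32 (78.0%) were lower by at least 0.7 in both (0.877%). Experiment 3 gave the smallest changes. Of the 69 genes chosen without it, 68 were lower in both genotypes there (47.8%), but 24 (34.8%) by at least 0.7 (0.371%). The 54 members were chosen on all 3 experiments, so their median changes do not bear on this question. In experiments 1, 2 and 3 these medians were -1.15, -1.27 and -0.87 in KO cells and -0.98, -1.02 and -0.81 in WT cells.

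**Figure D3:**
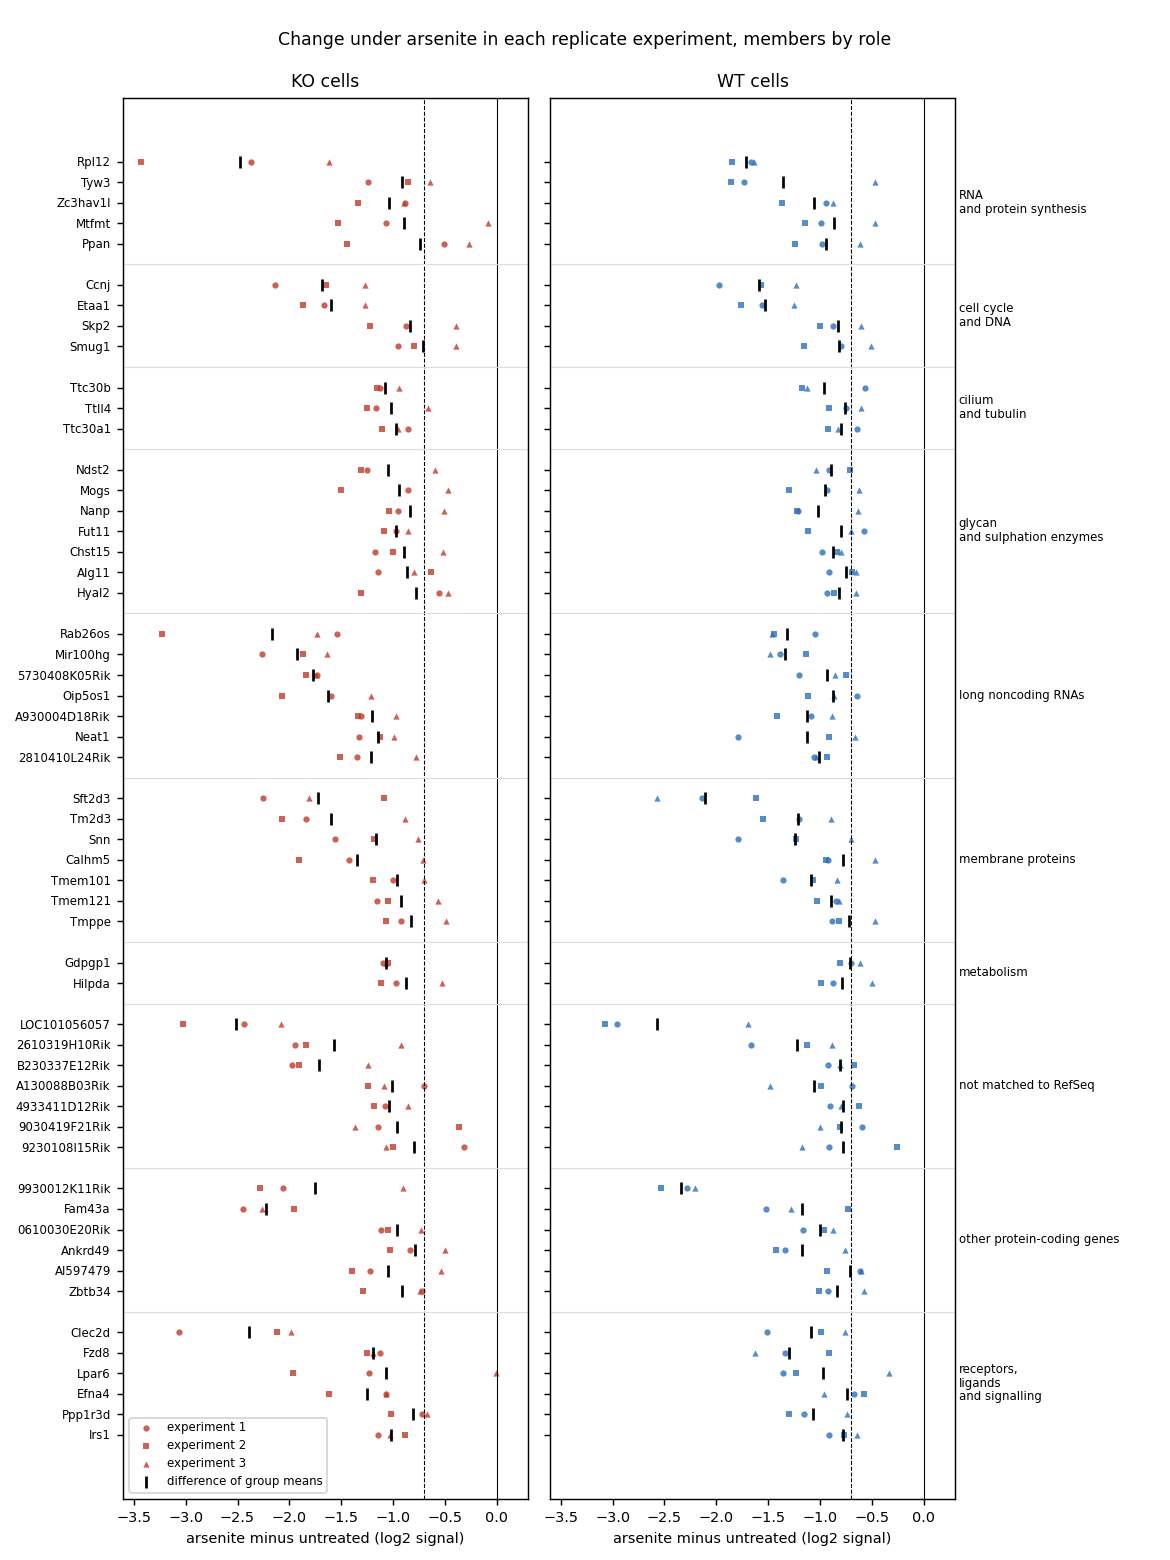
Change under arsenite (arsenite minus untreated, log2 signal) of each member in replicate experiments 1, 2 and 3 (circles, squares and triangles), in KO cells on the left and WT cells on the right, grouped by role; bars are differences of group means and the dashed line marks -0.7. The members were chosen on the means of these arrays, and all points lie below 0; the triangles of experiment 3 are often the nearest to it (median -0.87 in KO cells and -0.81 in WT cells).

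Other probe sets of the same genes were not used by the rule, though they were read on the same arrays. They exist for 18 members, as 27 probe sets that name 1 gene. Of these, 6 lay under the 40th percentile of all values in both untreated groups. Of the 21 others, from 15 members, 16 were lower in both genotypes (46.9% of such unused probe sets over all genes), 9 showed at least 50% of the log2 fall of the chosen probe set, and 3 were lower by at least 0.7 in both (1.07%). All 3 belong to Skp2, which gave 5 of the 16. Without Skp2, in a count added after the values were seen, 11 of 16 probe sets from 14 members were lower in both and 0 by at least 0.7 in both. Tmppe, a transmembrane metallophosphoesterase by name, had a second probe set that changed by -0.81 in KO cells and -0.70 in WT cells, near its chosen one at -0.83 and -0.72. The zinc finger gene Zbtb34 had a second probe set with changes of 0.57 in KO cells and 0.45 in WT cells. That of 9030419F21Rik changed by 0.15 in KO cells and -0.01 in WT cells. The remaining members rest on 1 probe set of their own, so that a fall of 1 transcript form and of the whole gene cannot be told apart for them.

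**Figure D4:**
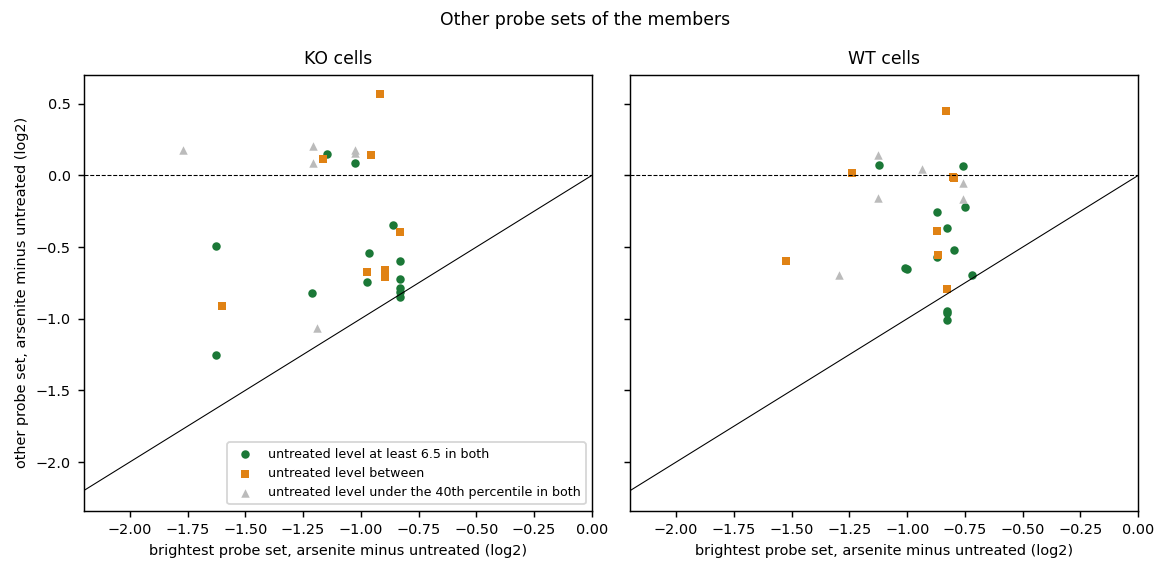
Change under arsenite (log2) of the 27 other probe sets on the y axis against the chosen, brightest probe set of the same member on the x axis, in KO cells (left) and WT cells (right), coloured by untreated level; the line marks equal change. Of the 21 probe sets that are not dim in both untreated groups, 16 lie below 0 in both genotypes.

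The members differed from other genes in their length. Gene span in RefSeq, from start to end with introns, was known for 47 members and had a median of 6129 bp, against 24024 bp for 10058 other genes at the same untreated level. Spans under 5000 bp made up 40.4% of these members and 11.5% of the other genes. The 40 protein-coding members alone had a median of 6025 bp, against 24431 bp, while the longest member, Mir100hg, spans 238660 bp. By span, members made up 1.93% of the genes of 2500 to 5000 bp and 0.12% of those over 80000 bp. A fall of at least 0.7 in WT cells, whatever the KO change, was found in 3.08% of genes of 2500 to 5000 bp. Over 80000 bp the share was 0.12%. These WT shares include the members, at 1.93% and 0.12% of the same bins, so their likeness to the members is largely set by the choice. KO falls, which include the members too, made up 4.24% and 5.09% of the same bins. Span is given as a description with no test.

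**Figure D5:**
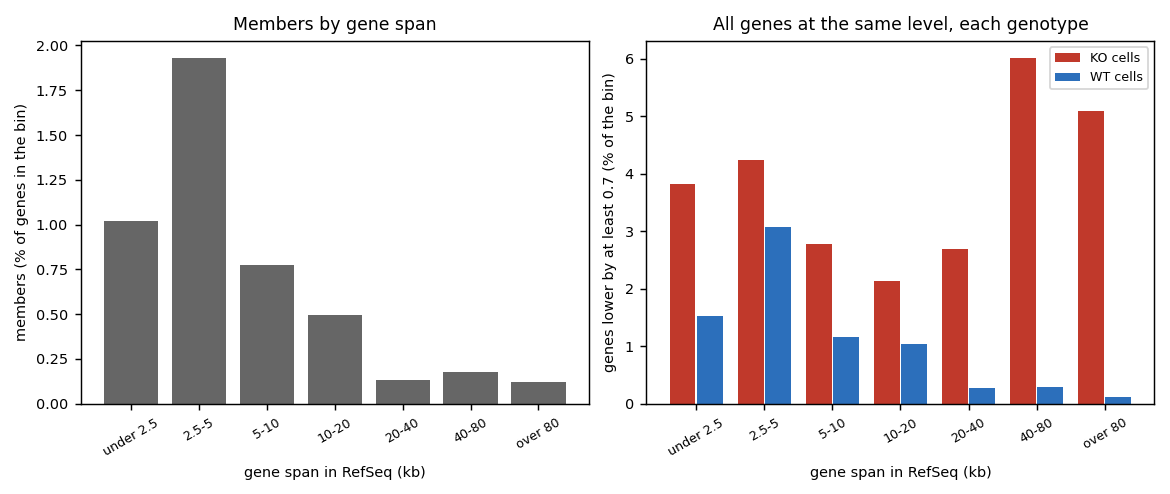
Share of genes in each bin of RefSeq gene span (kb) that are members (left), and share of all genes at the same untreated level that were lower by at least 0.7 in KO cells and in WT cells (right, % of the bin). Members and WT falls concentrate in spans under 20000 bp, while KO falls reach 6.01% between 40000 and 80000 bp. The falls on the right include the members.

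Gene ontology terms of the deposited table, held for 40 members, placed 15 (37.5%) as integral to membrane, against 20.3% of other annotated genes at that level. For the nucleus the count was 9 (22.5%), against 39.8%, and for the cilium 3 (7.5%), against 1.13%. These 3 are Ttll4, and Ttc30a1 and Ttc30b, which encode forms of IFT70. A list of 44 other measured centrosome and cilium genes held no member. In KO cells 7 of them were called lower (3.8% of all genes) and 1 higher (3.74%). In WT cells none were lower (0.477%) and 1 was higher (1.65%). With the replicate block 8 were lower and 1 higher in KO cells, and none lower and 3 higher in WT cells. The rule left out symbols starting with Hox, Zfp or Slc, which the other genes keep. The nuclear and membrane shares are thus partly set by the choice of members. Promoter windows were held for 38 members (42 windows). Their median GC content was 55.5%, against 61.3% in 10399 windows of other genes at the same level. A CCAAT box was in 45.2% of the members' windows and 37.6% of the others, a GC box in 59.5% and 65.0%, an E-box in 16.7% and 10.3%, an antioxidant response element in 16.7% and 14.2%, and an NRF1 motif in 2.38% and 10.7%. The share of other windows lay inside the members' 95% Wilson interval, which covers counting error only, for every motif searched. For NRF1 that interval was 0.422% to 12.3%.

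KO and WT cells were then compared directly. The rule set no limit on this contrast, but it chose members on the same group means. The counts and medians below are thus not independent of the choice. In untreated cells 12 members were called higher in KO cells at an adjusted p under 0.05 (limma, all 20750 genes, where 9.83% were higher), and none lower (10.3%), with none below 0 at an unadjusted p under 0.05 either. At the members' untreated level 15.2% of genes were higher and 15.6% lower. With the replicate number as a block, 20 were higher (14.3%) and 1, B230337E12Rik, was lower (14.9%). Fitted without replicate experiment 1, or without replicate experiment 3, the count was 7. The median difference over the members was 0.37, with 41 above 0, against a median of -0.002 for genes at that level. P-values here measure the spread between replicate experiments of 1 cell population per genotype.

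Fam43a had the largest such difference. It read 8.77, 7.56 and 8.96 in arsenite-treated KO cells and 11.21, 9.51 and 11.23 in untreated KO cells. Its WT values were 7.15, 6.94 and 6.96 with arsenite and 8.67, 7.67 and 8.24 without. Even the lowest untreated KO array lay above the highest untreated WT array, and the untreated difference was 2.46 ± 0.47 (limma adjusted p = 0.00291). Its changes with arsenite were -2.22 ± 0.47 in KO cells and -1.18 ± 0.47 in WT cells. Calhm5, a member of the CALHM channel family, read 8.65, 6.97 and 9.31 in arsenite-treated KO cells and 10.08, 8.88 and 10.03 in untreated KO cells. In WT cells Calhm5 read 6.87, 5.98 and 6.64 with arsenite and 7.80, 6.93 and 7.10 without. Untreated KO arrays again lay above all untreated WT arrays, by 2.39 ± 0.53 (limma adjusted p = 0.00743). Neither Fam43a nor Calhm5 was called without experiment 3, and Calhm5 was not called without experiment 1.

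9930012K11Rik, a protein-coding gene, read 7.68, 6.68 and 8.61 in arsenite-treated KO cells and 9.74, 8.96 and 9.51 in untreated KO cells. In WT cells it read 4.84, 4.70 and 5.63 with arsenite and 7.12, 7.23 and 7.84 without. Its untreated difference was 2.01 ± 0.42 (limma adjusted p = 0.00565) and was not called without experiment 1. Its WT fall of -2.34 ± 0.42 was the larger, beside a KO fall of -1.75 ± 0.42. Its arsenite-treated WT arrays, but not the KO ones, lay under the 40th percentile of all values (5.86). The sizes of these falls are thus not fully comparable. Clec2d differed by 1.86 ± 0.33 between untreated KO and WT cells (limma adjusted p = 0.00206). The remaining called members were Efna4, Snn, Lpar6, Zc3hav1l, AI597479, Hilpda, Hyal2 and Alg11, with differences of 1.54 for Efna4 down to 0.52 for Alg11.

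In arsenite-treated cells 13 members were called, 10 higher in KO cells (10.3% of all genes) and 3 lower (10.8%). The 3 lower ones were the noncoding RNAs Mir100hg (-0.99, limma adjusted p = 0.0484) and 5730408K05Rik (-1.39, limma adjusted p = 0.0178), and B230337E12Rik (-1.46, limma adjusted p = 0.00857). With the replicate block 17 were higher (15.1%) and 5 lower (15.0%). The count of 13 was 21 without the arsenite-treated KO array of experiment 2, 8 without that of experiment 3, 6 without the arsenite-treated WT array of experiment 2, and 6 without experiment 1 or without experiment 3.

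The size of the fall was set against genotype by the difference of responses, the KO change minus the WT change. By asking for a fall in both genotypes the rule left out genes that respond in 1 of them, so nothing is read from the number of calls or of like changes among the members. None of the 54 was called (limma, 0.0337% of all genes were), and none with the replicate block (0.0578%). At an unadjusted p under 0.05 there were 2 members, Clec2d and Gdpgp1, where 5.88% of all genes passed. Clec2d had a difference of -1.30 ± 0.47 (limma adjusted p = 0.669) and Gdpgp1 of -0.37 ± 0.15 (limma adjusted p = 0.763). The fall was larger in KO cells for 37 members and in WT cells for 17, with a median difference of -0.09, and 30 members had changes within 0.2 of each other. It was larger by at least 0.5 in KO cells for 10 members, among them Fam43a (-1.04 ± 0.66), and in WT cells for 1, 9930012K11Rik (0.59 ± 0.60). The standard errors, 0.15 to 0.75 with a median of 0.36, are from the fit without the replicate block. They thus include spread that arrays of a replicate experiment share, and limit what this comparison can show in that fit.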

How the data were processed

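RNA was read on Affymetrix Mouse430_2 arrays. The values are log2 signals after RMA, deposited by the authors per the submitters' processing notes, which give no version. RMA gives all arrays 1 distribution, so a change of total RNA is not visible. Group means and differences in the text are on that log2 scale, and percentages of untreated signal are powers of 2 of those differences. Of 45101 probe sets in the full deposited table, 38130 name 1 gene, and the brightest per gene gave 20750 genes. Array columns were tied to groups by array code and by the authors' mean columns (tolerance 1e-06). A shorter deposited table was not used for the main values, because 10 of its 12 columns hold another array than their label names. RefSeq (GRCm38.p6) matched 47 members.

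Tests used limma 3.58.1 (R 4.3.3), 1 fit of 4 groups without a replicate block, two-sided, with Benjamini-Hochberg adjustment over all genes. All standard errors given are from this fit and include the spread between replicate experiments. The fit was tested on simulated data. Arrays with the same replicate number correlated at 0.231 to 0.738 in their deviations from group means (18 pairs), and the others at -0.575 to -0.0106, and the series describes 3 replicate experiments, so block counts are given beside the results they move. No p is given for the arsenite changes of members, since those chose them. Members and gene lists were chosen with earlier results of these data known. Full values are given for the 12 members with the largest mean fall, the 4 with the largest called untreated difference and genes nearest the limit. From each list, members and up to 2 others with the largest falls are named. Values of other members were given after they were seen. Other pathway lists that hold no member are not described, apart from that of the centrosome and cilium. Exon counts and protein lengths were not analysed here.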

Additional observations from a re-analysis of the deposited data

How the results depend on the processing

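The changes of the 12 members with the largest fall and the 4 named untreated differences kept their direction under renormalisation, median centring, the mean over probe sets and all arrays left out. The exception came from grouping the arrays by the labels of the shorter table, whose columns hold other arrays: there 1 gene met the rule, no member was called in either comparison of KO with WT cells (0 and 0), and Rab26os (2610019E17Rik) changed by 0.16 in KO cells. The number of members was 52 after quantile normalisation (51 of them among the 54), 58 after median centring (54), 52 with the mean over probe sets (42), 79 and 37 at falls of 0.6 and 0.8, and 41 to 71 when arrays or experiments were left out. The untreated KO minus WT count of 12 was 21 with the replicate block and 7 to 15 when arrays or experiments were left out. The count of 13 in arsenite-treated cells was 22 with the replicate block, 21 with the replicate as a random effect, 6 at an adjusted p under 0.01, and 6 to 21 when arrays or experiments were left out. The difference of responses gave 0 calls throughout. The cause of these shifts was not tested. Against all promoters, GC boxes were 23.9 percentage points more frequent in members' windows. Against windows of other genes at the same untreated level they were less frequent (59.5% in members' windows and 65.0% in the others). Etaa1 changed by -1.26 in KO cells and -1.06 in WT cells as the mean over its probe sets. The 3 arrays per group limit the precision, and levels under the 40th percentile of all values (5.86) leave less room for a fall.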
